A study of Mus musculus with 2 samples.

Results

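The genes described here are 10 mouse antioxidant enzymes: the 6 peroxiredoxins Prdx1 to Prdx6, the glutathione peroxidases Gpx1 and Gpx4, and the superoxide dismutases Sod1 and Sod2. They were chosen by symbol, all 10 were found among the 32286 features, and the rule itself uses no measured value, though the set was drawn up with earlier results of these data known. They were followed across cell classes of mouse bone marrow in 2 droplet-based 3' single-cell libraries. The control library came from the genotype Mx1Cre+/-;Rosa26+/+ and the other, called the MYC library, from Mx1Cre+/-;Rosa26LSL-MYC/LSL-MYC. Both genotypes therefore carry Mx1-Cre, a Cre recombinase under an interferon-inducible promoter that is active in many blood and non-blood cells. They differ in a MYC transgene behind a loxP-flanked stop cassette (LSL) on both Rosa26 alleles. The study set out to compare marrow blood cells with and without excess MYC that begins in their stem cells. Age, sex, any induction of Cre and the number of animals per library are not given in the sources used here. With 1 library per group there was no test and no p-value. Intervals are exact 95% intervals that cover counting error only, and genotype cannot be told apart from animal or library preparation.

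Superoxide, a by-product of respiration and of the phagocyte oxidase, is turned into hydrogen peroxide by superoxide dismutases, of which Sod1 works in the cytosol and Sod2 in the mitochondrial matrix. Peroxiredoxins and glutathione peroxidases then reduce hydrogen peroxide and organic peroxides, drawing on thioredoxin or on glutathione. Each compartment has its own members, and red cells are known for large amounts of Prdx2 and Gpx1 while phagocytes make oxidants as a weapon.

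After filters the control library held 14903 cells with 121642346 unique molecular identifiers (UMIs) and the MYC library 12540 cells with 101793556, with medians of 5343 and 6016 UMIs per cell. The feature named MYC drew 0 UMIs in the control library and 289 (2.84 CPM) in the MYC library, while the mouse gene Myc stood at 23.4 and 21.2 CPM. The libraries shared 97 cell barcodes. Cells formed 25 clusters, and 17 classes were named from marker genes, so that every class name below means cells like that type. Comparisons used the 11 classes with at least 100 cells in each library, from 110 cells (erythroid progenitors, MYC library) to 4474 (mature neutrophils, control library). Levels are UMIs summed over a class and given per 1000000 UMIs of that class and library (CPM), and ratios are the MYC library over the control library. One class, here called MHC II-high dendritic-like cells, was led by H2-Eb1 and H2-Aa but also by Mrc1, Axl and Maf. The cluster of stem or multipotent progenitors was led by Pf4 besides Mecom and Meis1. Mature neutrophils of the control library lay mostly in clusters 0, 4 and 10 (1567, 1484 and 1029 cells) and those of the MYC library in clusters 4 and 14 (1368 and 1825 cells). The proliferation gene Mki67 was lower in the MYC library in 9 of the 11 classes, and its part in the results was not tested. For comparison, 34.9% of the 5071 genes with 50 UMIs in every class were lower in at least 10, and no smaller a share in at least 9.

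Across the 110 combinations of gene and class, 27 were at least 1.5-fold higher in the MYC library, 8 at least 1.5-fold lower and 74 in between, and 1 (Prdx4 in basophils or mast cells) had under 50 UMIs over both libraries and was not counted. Of all gene and class combinations with as many UMIs 8.94% were as much higher and 19.3% as much lower. Ratios lay above 1 in 86 combinations and above the median ratio of all genes of the class in 91. That median was below 1 in every compared class, from a log2 ratio of -0.30 in granulocyte progenitors and mature B cells to -0.04 in erythroblasts, so a gene at the class median reads as lower. Scaling by the median of ratios gave 45 higher and 4 lower (91.8% of calls higher, against 77.1%), and leaving the 20 most abundant genes out of the denominator gave 18 and 9 (66.7%). Each of these settings shifts all genes of a class alike, so the 8.94% and 19.3% do not apply there. Shares of all genes at these settings are not given here. Prdx1, Prdx5, Prdx6, Gpx4 and Sod2 had ratios above 1 in all 11 classes, which 11.6% of the 5071 genes with 50 UMIs in every class also had, but with the 20 most abundant genes left out of the denominator Prdx1 lay below 1 in 3 classes and Prdx5 and Sod2 in MHC II-high dendritic-like cells. Prdx4 lay above 1 in the 10 classes with at least 50 UMIs, and in basophils or mast cells, with 7 and 6 UMIs, its side of 1 turned with that denominator. Averaged cell by cell, Prdx4 in basophils or mast cells and Prdx6 in immature neutrophils also lay below 1. Other cell filters turned Prdx4 in basophils or mast cells, Prdx5 in MHC II-high dendritic-like cells (at least 1000 UMIs and 500 genes) and Prdx6 in immature neutrophils (doublets kept) below 1. Sod1 had ratios below 1 in all 11 (18.4% of genes), although in immature neutrophils it lay above 1 when scaled by the median of ratios or averaged cell by cell, and in MHC II-high dendritic-like cells and erythroblasts it lay above 1 with classes from markers alone and at a coarser clustering, respectively. Its ratio lay below the class median of all genes in 10 classes, which 20.5% of genes did in at least 10.

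**Figure D1:**
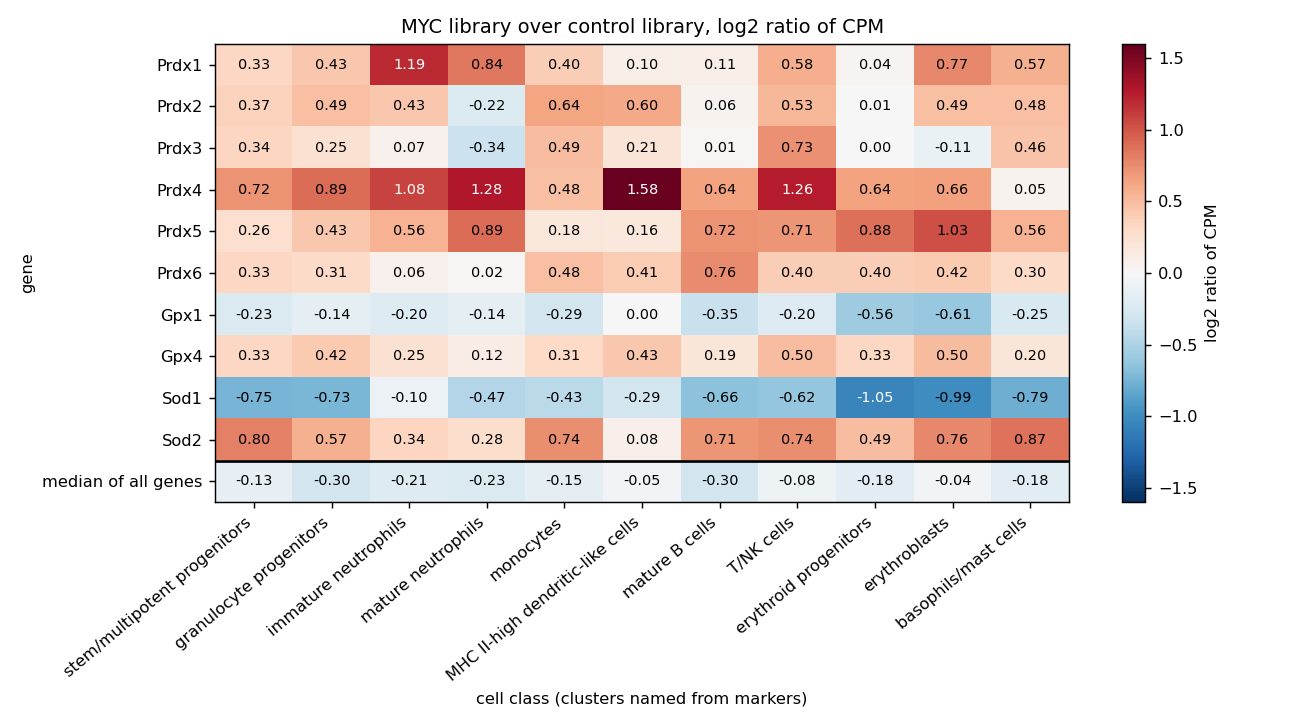
Log2 ratios of CPM, MYC library over control library, for the 10 genes (rows) in the 11 compared classes (columns), with the median of all genes of each class in the bottom row; red is higher and blue lower in the MYC library. Prdx4 is red throughout, from 0.05 to 1.58, and Sod1 blue throughout, from -1.05 to -0.10, relative to all UMIs; Prdx4 in basophils or mast cells and Sod1 in immature neutrophils change sign under other scalings.

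Class by class, stem or multipotent progenitors had 2 of 10 genes at least 1.5-fold higher in the MYC library (Prdx4 and Sod2), against 5.98% of all genes, and 1 at least as much lower (Sod1; 12.9% of all genes). Granulocyte progenitors had 1 of 10 genes at least 1.5-fold higher in the MYC library (Prdx4), against 4.67% of all genes, and 1 at least as much lower (Sod1; 26.2% of all genes). Immature neutrophils had 2 of 10 genes at least 1.5-fold higher in the MYC library (Prdx1 and Prdx4), against 8% of all genes, and none as much lower (16% of all genes). Mature neutrophils had 3 of 10 genes at least 1.5-fold higher in the MYC library (Prdx1, Prdx4 and Prdx5), against 7.36% of all genes, and none as much lower (21.7% of all genes). Monocytes had 2 of 10 genes at least 1.5-fold higher in the MYC library (Prdx2 and Sod2), against 8.7% of all genes, and none as much lower (17.1% of all genes). These are myeloid and stem classes, in which at most 3 of the 10 genes passed the fold in either direction. MHC II-high dendritic-like cells had 2 of 10 genes at least 1.5-fold higher in the MYC library (Prdx2 and Prdx4), against 16% of all genes, and none as much lower (18.2% of all genes). Mature B cells had 4 of 10 genes at least 1.5-fold higher in the MYC library (Prdx4, Prdx5, Prdx6 and Sod2), against 6.99% of all genes, and 1 at least as much lower (Sod1; 29.4% of all genes). T or NK cells had 4 of 10 genes at least 1.5-fold higher in the MYC library (Prdx3, Prdx4, Prdx5 and Sod2), against 10.4% of all genes, and 1 at least as much lower (Sod1; 15.4% of all genes). The lymphoid classes had 4 genes higher each, on 140 and 149 cells of the MYC library. Erythroid progenitors had 2 of 10 genes at least 1.5-fold higher in the MYC library (Prdx4 and Prdx5), against 8.54% of all genes, and 1 at least as much lower (Sod1; 21.1% of all genes). Erythroblasts had 4 of 10 genes at least 1.5-fold higher in the MYC library (Prdx1, Prdx4, Prdx5 and Sod2), against 15% of all genes, and 2 at least as much lower (Gpx1 and Sod1; 15.5% of all genes). Basophils or mast cells had 1 of 9 genes at least 1.5-fold higher in the MYC library (Sod2), against 9.17% of all genes, and 1 at least as much lower (Sod1; 20.9% of all genes). The median log2 ratio of the 10 genes lay between 0.07 in mature neutrophils and 0.55 in T or NK cells (9 genes in basophils or mast cells), above the median of all genes in each of the 11 classes.

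Promoter windows of 3 genes are shown because Prdx4 was at least 1.5-fold higher in the most classes, Sod1 lower in the most, and Prdx1 carries the same letters as Sod1 with ratios on the other side of 1. They come from RefSeq (GRCm38.p6), run from 250 bases before to 50 after a transcript start, and are written along the gene's own strand, 5′ to 3′. Capitals mark matches to CACGTG, the E-box that MYC and other factors bind, or to TGACNNNGC, the core of the antioxidant response element that NRF2 binds; both strands were searched.
Prdx4: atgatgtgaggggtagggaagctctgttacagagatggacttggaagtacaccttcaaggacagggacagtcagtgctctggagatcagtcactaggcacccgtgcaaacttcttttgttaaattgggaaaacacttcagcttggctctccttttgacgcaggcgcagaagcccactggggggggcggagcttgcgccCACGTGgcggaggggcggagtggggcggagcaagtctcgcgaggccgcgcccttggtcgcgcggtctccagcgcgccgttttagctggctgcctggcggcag
Prdx1: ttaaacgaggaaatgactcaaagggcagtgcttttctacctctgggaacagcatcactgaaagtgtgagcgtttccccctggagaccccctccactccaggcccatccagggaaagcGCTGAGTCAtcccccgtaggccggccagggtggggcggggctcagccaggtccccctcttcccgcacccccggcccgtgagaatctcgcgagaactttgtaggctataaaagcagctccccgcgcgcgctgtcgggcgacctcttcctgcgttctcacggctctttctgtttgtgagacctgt
Sod1: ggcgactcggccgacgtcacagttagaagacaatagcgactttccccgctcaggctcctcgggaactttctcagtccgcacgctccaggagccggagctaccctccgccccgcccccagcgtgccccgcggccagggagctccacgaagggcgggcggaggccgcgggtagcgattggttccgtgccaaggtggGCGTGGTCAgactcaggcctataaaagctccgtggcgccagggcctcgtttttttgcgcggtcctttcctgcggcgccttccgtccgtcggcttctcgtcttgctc
The windows lie at chrX:155338411-155338710 (minus strand), chr4:116685349-116685648 (plus) and chr16:90220512-90220811 (plus). The E-box letters start 52 bases before the Prdx4 start, which lies inside the gene as GENCODE draws it, and the response-element letters start 133 bases before the Prdx1 start and 56 before the Sod1 start. The Prdx1 match also holds TGACTCA, the letters of an AP-1 motif. Of the 9 genes with a window (Prdx6 had none), Prdx4 alone held CACGTG and Prdx1 and Sod1 alone TGACNNNGC. Of 32851 promoter windows of the same length 7.15% held the E-box and 12.4% the response-element letters. A match describes the letters and is no evidence of binding.

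Sod1 (ENSMUSG00000022982, chromosome 16, 90220754 to 90226329, plus strand, GRCm38), the copper and zinc superoxide dismutase of the cytosol, was lower in the MYC library. The gene overlaps Scaf4 on the other strand, and whether counting used strand is not given in the sources used here. Control levels ran from 545 CPM in erythroid progenitors, 349.7 in erythroblasts, 341 in monocytes, 300.2 in stem or multipotent progenitors, 292 in MHC II-high dendritic-like cells, 238 in basophils or mast cells, 157 in T or NK cells, 133 in mature B cells, 99.6 in granulocyte progenitors, 48.3 in mature neutrophils and 29.7 in immature neutrophils. Erythroblasts and monocytes had overlapping intervals, as had stem or multipotent progenitors and MHC II-high dendritic-like cells, and T or NK and mature B cells. In erythroid progenitors the level was 545 CPM in the control library and 263 CPM in the MYC library (log2 -1.05, interval -1.16 to -0.95). Erythroblasts stood at 349.7 and 176 CPM (-0.99, interval -1.11 to -0.88). These erythroid classes had the lowest ratios of the gene among the compared classes. Stem or multipotent progenitors had 300.2 and 179 CPM, a log2 ratio of -0.75, interval -0.90 to -0.60. Basophils or mast cells had 238 and 138 CPM, a log2 ratio of -0.79. Granulocyte progenitors had 99.6 and 59.9 CPM, a log2 ratio of -0.73. The ratio passed 1.5-fold in 7 of the 11 classes, which 5.82% of genes with 50 UMIs in every class did in at least 7. With median-of-ratios scaling, or averaged cell by cell, it passed in 4 of the 11. Among cells under 5% mitochondrial UMIs it passed in 3 of the 9 classes with enough cells. Monocytes had a smaller difference, 341 against 253 CPM (-0.43). Immature neutrophils, where the gene was lowest, had 29.7 and 27.7 CPM and an interval that included 1 (-0.10, interval -0.27 to 0.07). The share of stem or multipotent progenitors with a Sod1 UMI was 97.8% and 84.1%, and 44.1% and 29.6% after each cell was thinned to 2000 UMIs, which left out 1 and 3 cells; in immature neutrophils, the class lowest in the gene, thinned shares were 5.82% and 5.54% (medians of 20771 and 14727.5 UMIs per stem or multipotent progenitor and 10194 and 10866 per immature neutrophil).

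Within the erythroid series the Sod1 difference was not uniform. Erythroblasts comprised cluster 11 (911 control and 345 MYC cells) and cluster 3 (290 and 134 cells), the latter led by Tmcc2, Xpo7, Slfn14 and Bpgm. Cluster 11 had 383 and 186 CPM of Sod1 (log2 ratio -1.04), close to erythroid progenitors. Cluster 3 went the other way, with 70.9 CPM from 108 UMIs in the control library and 122 CPM from 76 UMIs in the MYC library (0.78, 0.34 to 1.22). In the same cluster Gpx4 stood at 76.2 and 228 CPM and Prdx1 at 22.3 and 114 CPM. In cluster 3 the control library thus held less of all 3 transcripts and more Gpx1, 5286 against 2980.2 CPM. Median UMIs per cell there were 5526 and 2260.5, and the part of depth or of stage within the cluster was not tested. Among the 18 clusters with at least 100 cells in each library Sod1 was lower in the MYC library in 17 (interval below 1 in 11), and cluster 3 was the exception. At a coarser clustering, in which the erythroblast class held late cells only, the log2 ratio of erythroblasts was 0.77 for Sod1, 1.41 for Gpx4 and 2.28 for Prdx1.

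**Figure D2:**
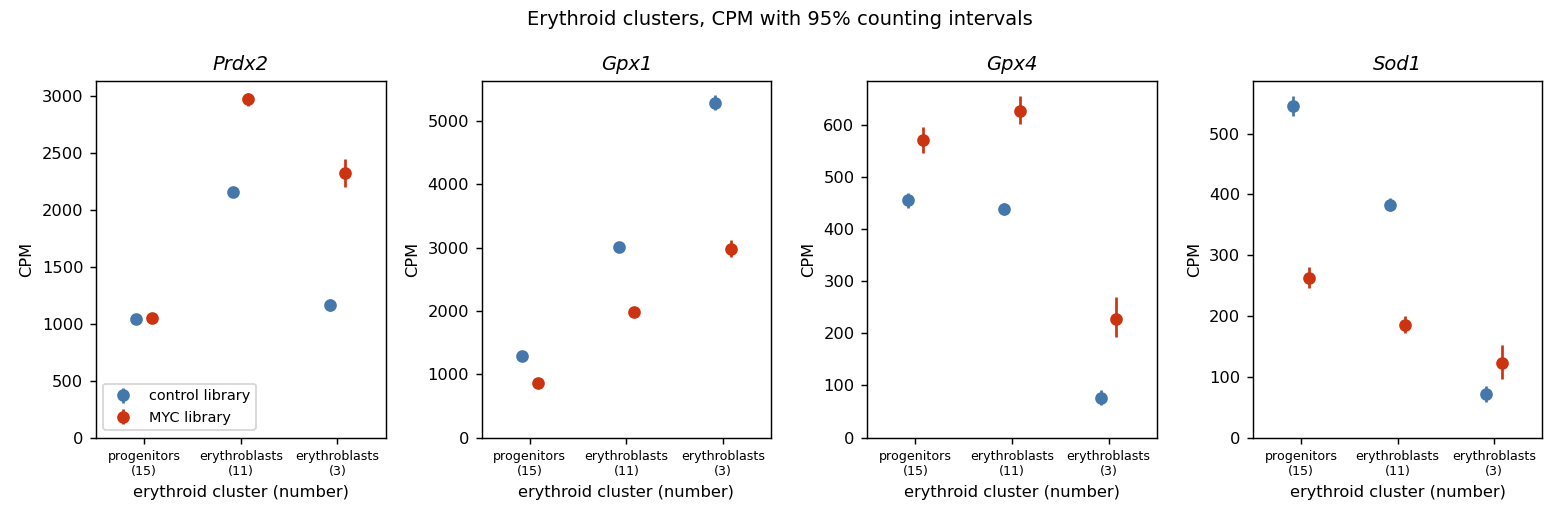
CPM of Prdx2, Gpx1, Gpx4 and Sod1 (vertical axis, from 0) in the 3 erythroid clusters of the control and MYC libraries; points are levels from summed UMIs and bars 95% counting intervals. Sod1 is lower in the MYC library in clusters 15 and 11 and higher in cluster 3, whereas Gpx1 is lower in all 3, with 1 library per group.

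Sod2 (ENSMUSG00000006818, chromosome 17, 13006846 to 13040063, plus strand), the manganese enzyme of the mitochondrial matrix, was higher in the MYC library. Its control levels ran from 112 CPM in erythroid progenitors, 66.0 in stem or multipotent progenitors, 57.1 in MHC II-high dendritic-like cells, 55.3 in monocytes, 43.7 in basophils or mast cells, 43.5 in granulocyte progenitors, 36.6 in erythroblasts, 35.1 in T or NK cells, 33.5 in mature B cells, 21.5 in immature neutrophils and 12.9 in mature neutrophils. From stem or multipotent progenitors down to mature B cells most neighbours in that order had overlapping intervals, while erythroid progenitors stood above and both neutrophil classes below. In basophils or mast cells the level was 43.7 CPM in the control library and 79.7 CPM in the MYC library (0.87, interval 0.43 to 1.31). Stem or multipotent progenitors had 66.0 and 115 CPM, a log2 ratio of 0.80, interval 0.57 to 1.04. Erythroblasts had 36.6 and 62.2 CPM (0.76, interval 0.54 to 0.98). T or NK cells had 35.1 and 58.7 CPM (0.74), monocytes 55.3 and 92.6 (0.74), and mature B cells 33.5 and 54.8 (0.71). Those were the 6 classes past 1.5-fold, and 5.3% of genes were as much higher in at least 6 classes. With the 20 most abundant genes left out 4 classes passed, and where at least 200 UMIs were required 3 passed. Differences were smaller in mature neutrophils, 12.9 against 15.6 CPM (0.28, interval 0.03 to 0.53), and in MHC II-high dendritic-like cells the interval included 1 (0.08, interval -0.30 to 0.46).

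Prdx4 (ENSMUSG00000025289, chromosome X, 155323918 to 155340754, minus strand) works in the endoplasmic reticulum, where it uses peroxide made during disulfide formation. It passed 1.5-fold in 9 of the 10 classes with enough UMIs, and 2.03% of 5823 genes did so in at least 9. With the 20 most abundant genes left out of the denominator it passed in 6 classes. Where at least 200 UMIs were required it passed in 4, as several classes had fewer UMIs. Its control levels ran from 93.5 CPM in monocytes, 59.4 in erythroid progenitors, 31.2 in stem or multipotent progenitors, 30.4 in erythroblasts, 29.0 in MHC II-high dendritic-like cells, 13.3 in mature B cells, 11.2 in T or NK cells, 4.08 in basophils or mast cells, 2.41 in granulocyte progenitors, 2.31 in mature neutrophils and 1.72 in immature neutrophils. From mature B cells down, neighbouring intervals overlapped and the levels rested on few UMIs, 33 in granulocyte progenitors and 33 in immature neutrophils of the control library. The level was 29.0 CPM in the control library and 86.7 CPM in the MYC library in MHC II-high dendritic-like cells, on 61 and 166 UMIs, the highest ratio of the gene among the compared classes (1.58, interval 1.15 to 2.03). Mature neutrophils had 2.31 and 5.62 CPM (1.28, interval 0.77 to 1.82) and T or NK cells 11.2 and 26.9 CPM on 32 and 22 UMIs (1.26, interval 0.41 to 2.09). Stem or multipotent progenitors had 31.2 and 51.5 CPM (0.72, interval 0.38 to 1.07), erythroid progenitors 59.4 and 92.6 (0.64, interval 0.43 to 0.85). Monocytes, with 1687 and 3276 UMIs, had 93.5 and 130.4 CPM, a log2 ratio of 0.48, interval 0.39 to 0.56, which stayed under 1.5-fold. In mature B cells the fold was passed but the interval included 1, on 42 and 14 UMIs (0.64, interval -0.35 to 1.54). Of the monocytes 56.1% and 70.9% had a Prdx4 UMI, and 14.98% and 20.7% after thinning to 2000 UMIs, without 13 and 12 shallower cells; the same thinned shares were 0.332% and 0.756% in immature neutrophils, where the gene was lowest.

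Plasma cells, which secrete antibody, had the highest Prdx4 level of the 16 named classes with at least 50 cells, 171 CPM in 249 control cells and 363 CPM in 89 cells of the MYC library (1.09, interval 0.94 to 1.24). They were outside the compared classes because of the 89 cells.

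Prdx5 (ENSMUSG00000024953, chromosome 19, 6906697 to 6910106, minus strand) is an atypical peroxiredoxin of mitochondria, peroxisomes and cytosol. It was mostly a granulocyte transcript, with 76.7% of its UMIs in the control library and 79.9% in the MYC library coming from neutrophils and granulocyte progenitors. Control levels ran from 1479 CPM in immature neutrophils, 1201 in mature neutrophils, 992 in granulocyte progenitors, 678 in monocytes, 328 in basophils or mast cells, 319 in MHC II-high dendritic-like cells, 165 in T or NK cells, 144 in stem or multipotent progenitors, 94.8 in erythroid progenitors, 91.3 in erythroblasts and 87.9 in mature B cells. Basophils or mast cells and MHC II-high dendritic-like cells had overlapping intervals, as had T or NK cells and stem or multipotent progenitors. From erythroid progenitors down to mature B cells neighbours overlapped too. Immature neutrophils led in the control library (1479 CPM, against 2179 in the MYC library) and mature neutrophils in the MYC library (1201 against 2229.7 CPM), so the order of these neutrophil classes turned between libraries. The log2 ratio was 0.89, interval 0.87 to 0.92 in mature and 0.56, interval 0.54 to 0.58 in immature neutrophils. It was higher in each of the 4 mature neutrophil clusters, from 1459.7 to 2457 CPM in cluster 4, the cluster with similar cell numbers in both libraries, and from 1086 to 1848 in cluster 0. The gene passed 1.5-fold in 5 classes, as 6.82% of genes did in at least 5, and in 8 with median-of-ratios scaling. Intervals lay above 1 in all 11 classes and in all 18 clusters with 100 cells per library. Granulocyte progenitors had 992 and 1339 CPM (0.43) and monocytes 678 and 769.5 (0.18). Of mature neutrophils 89.0% and 96.05% had a Prdx5 UMI, and 83.9% and 97.3% after thinning to 2000 UMIs, which left out 420 and 316 cells; the thinned shares in mature B cells, lowest in the gene, were 15.1% and 25.3% at median depths of 4056.5 and 5302 UMIs for the neutrophils and 4485 and 4759 for the B cells. Prdx5 overlaps Trmt112 on the other strand, and whether counting used strand is not given in the sources used here.

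Neutrophil transcripts in classes that should lack them were set beside Prdx5, and their part in its differences was not tested. The summed share of 6 neutrophil transcripts (S100a8, S100a9, Camp, Ngp, Ltf and Lcn2) was 1.46% and 2.68% of UMIs in erythroblasts, where Prdx5 stood at 91.3 and 186 CPM (1.03). In mature B cells that share was 0.833% and 1.31%, with Prdx5 at 87.9 and 145 CPM (0.72). T or NK cells and erythroid progenitors were higher in both, too, with Prdx5 log2 ratios of 0.71 and 0.88. Per 1000 UMIs of those neutrophil genes, erythroblasts held 6.25 and 6.96 Prdx5 UMIs, T or NK cells 6.77 and 9.27, erythroid progenitors 9.72 and 11.8, mature B cells 10.6 and 11.04, and mature neutrophils themselves 4.61 and 7.23. These values were higher in the MYC library in all 5 classes, least so in erythroblasts and mature B cells. The neutrophil RNA share was lower in the MYC library in stem or multipotent progenitors (1.07% and 0.675%), monocytes (1.57% and 1.36%) and MHC II-high dendritic-like cells (1.347% and 1.33%), each with a higher Prdx5 level. In basophils or mast cells, too, neutrophil RNA was lower in the MYC library, 2.66% and 1.65%, while Prdx5 stood at 328 and 483 CPM (0.56, interval 0.40 to 0.72).

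**Figure D3:**
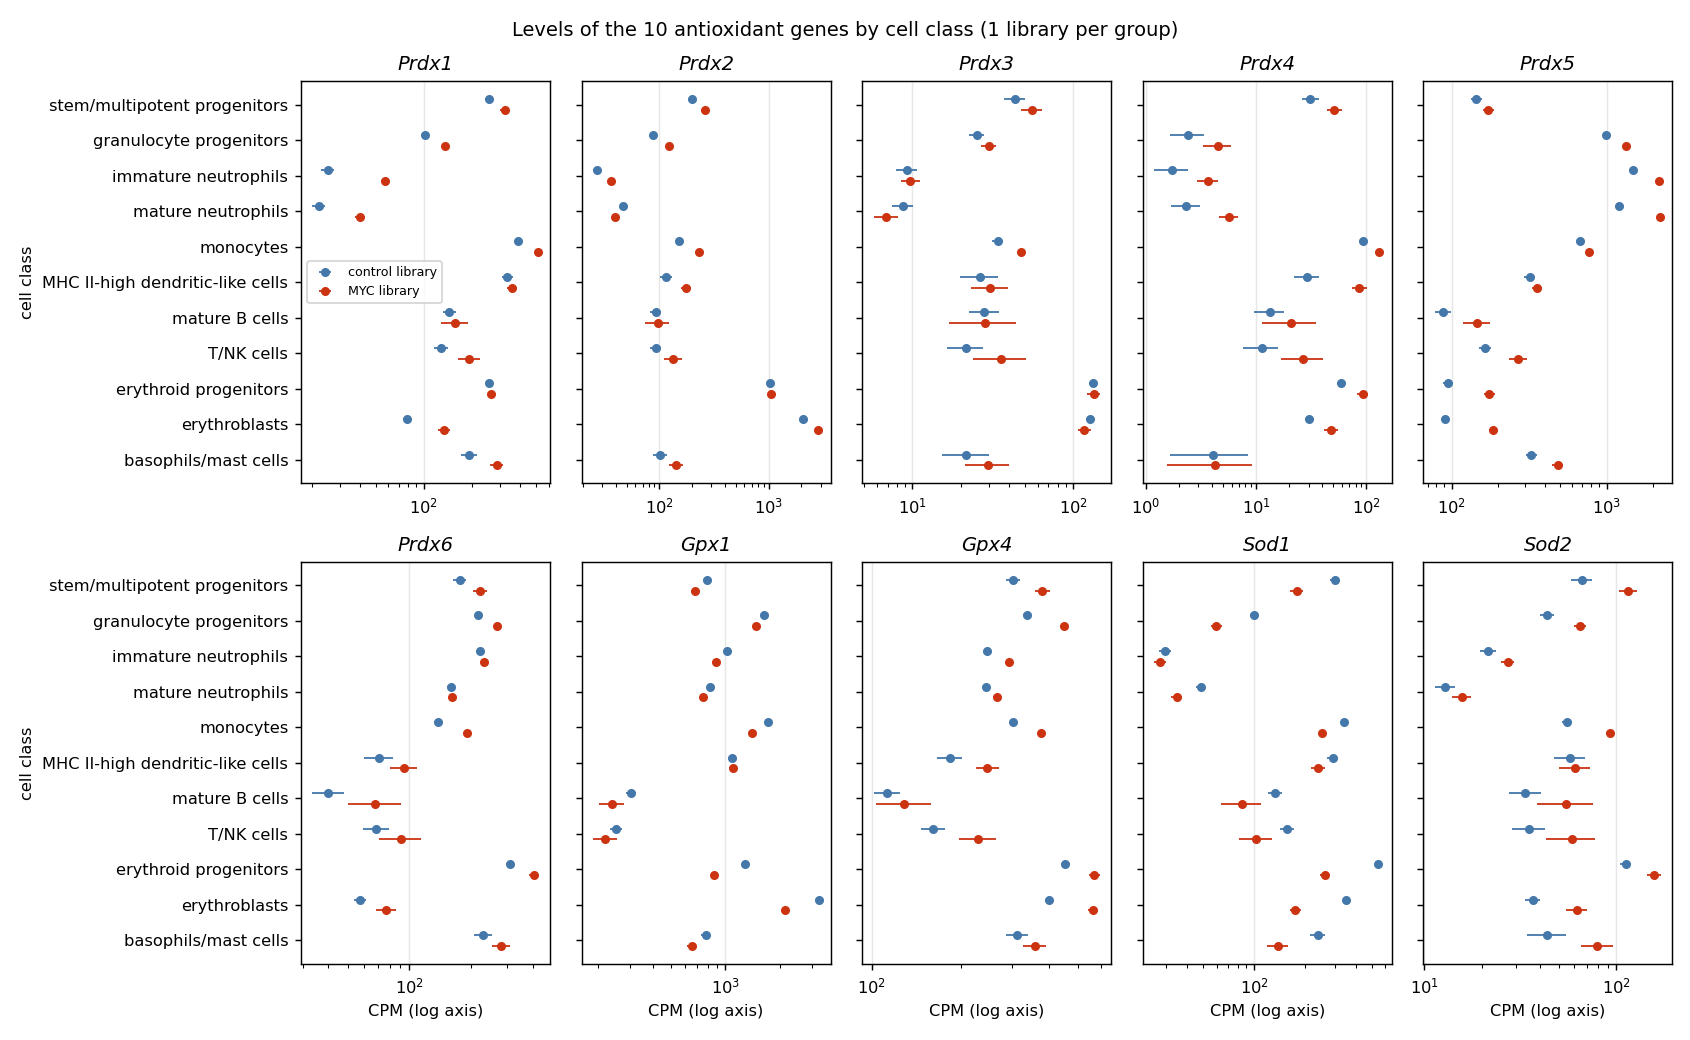
CPM (logarithmic axis) of each of the 10 genes in the 11 compared classes, blue for the control and red for the MYC library; points come from summed UMIs and bars are 95% counting intervals. Prdx5 is highest in the neutrophil classes of both libraries, Prdx2 and Gpx1 in erythroblasts, and Sod1 has its red points to the left of the blue ones.

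Prdx1 (ENSMUSG00000028691, chromosome 4, 116685544 to 116700822, plus strand), a cytosolic peroxiredoxin that thioredoxin recycles, was lowest in neutrophils and had its highest ratio among the compared classes in immature ones. Immature neutrophils had 25.2 CPM in the control library and 57.5 CPM in the MYC library (1.19, interval 1.04 to 1.34). Mature neutrophils had 22.2 and 39.9 CPM (0.84, interval 0.67 to 1.02). All 4 mature neutrophil clusters had a higher level in the MYC library, among them cluster 4 with 19.7 and 38.2 CPM, though the interval of cluster 10 included 1. Control levels ran from 389 CPM in monocytes, 332 in MHC II-high dendritic-like cells, 256 in erythroid progenitors, 254 in stem or multipotent progenitors, 192 in basophils or mast cells, 144 in mature B cells, 129 in T or NK cells, 101 in granulocyte progenitors, 78.9 in erythroblasts, 25.2 in immature neutrophils and 22.2 in mature neutrophils. Erythroid progenitors and stem or multipotent progenitors had overlapping intervals, as had mature B and T or NK cells, and the neutrophil classes. Monocytes, the highest class in both libraries, went from 389 to 512 CPM (0.40). Erythroblasts went from 78.9 to 134 CPM (0.77), the third class past 1.5-fold, and 12.8% of genes were as much higher in at least 3 classes (6 classes passed with median-of-ratios scaling). In erythroid progenitors the level barely differed, 256 and 264 CPM, and the interval included 1 there, in mature B cells and in MHC II-high dendritic-like cells.

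Prdx2 (ENSMUSG00000005161, chromosome 8, 84969587 to 84974834, plus strand), the abundant cytosolic peroxiredoxin of red cells, was highest in the erythroid classes. Control levels ran from 2049 CPM in erythroblasts, 1041 in erythroid progenitors, 201 in stem or multipotent progenitors, 149.5 in monocytes, 115 in MHC II-high dendritic-like cells, 101 in basophils or mast cells, 92.4 in mature B cells, 92.2 in T or NK cells, 88.2 in granulocyte progenitors, 46.1 in mature neutrophils and 26.8 in immature neutrophils. From MHC II-high dendritic-like cells to granulocyte progenitors neighbouring intervals overlapped. Erythroblasts had 2049 CPM in the control library and 2869.8 CPM in the MYC library (0.49, interval 0.45 to 0.52), while erythroid progenitors had 1041 and 1047 CPM (0.01, interval -0.05 to 0.06). By cluster, cluster 11 went from 2156 to 2971 CPM and cluster 3 from 1161 to 2319.5. The difference was small in erythroid progenitors and larger in cluster 3 than in cluster 11. Monocytes had 149.5 and 233 CPM (0.64, interval 0.57 to 0.70). MHC II-high dendritic-like cells had 115 and 175 CPM (0.60, interval 0.36 to 0.85). Haemoglobin RNA, which erythroid cells make, was lower in monocytes of the MYC library, at 0.100% and 0.0469% of UMIs, and its part was not tested. Prdx2 passed 1.5-fold in monocytes and MHC II-high dendritic-like cells, in 6 with median-of-ratios scaling and in 0 with the 20 most abundant genes left out. Mature neutrophils were the exception with 46.1 and 39.4 CPM (-0.22, interval -0.37 to -0.08), a log2 ratio that lay just above 0 with median-of-ratios scaling; their haemoglobin RNA was 0.241% and 0.137%, and its part was not tested. Prdx2 overlaps Rnaseh2a and Junb on the other strand.

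Prdx3 (ENSMUSG00000024997, chromosome 19, 60864051 to 60874556, minus strand), the peroxiredoxin of the mitochondrial matrix, was also an erythroid transcript. Its levels in the control library ran from 133 CPM in erythroid progenitors, 126 in erythroblasts, 43.3 in stem or multipotent progenitors, 33.8 in monocytes, 27.8 in mature B cells, 26.2 in MHC II-high dendritic-like cells, 25.1 in granulocyte progenitors, 21.6 in basophils or mast cells, 21.4 in T or NK cells, 9.20 in immature neutrophils and 8.69 in mature neutrophils. Erythroid progenitors and erythroblasts had overlapping intervals, and from monocytes down to T or NK cells neighbours in this order overlapped. Erythroid progenitors had 133 CPM in the control library and 134 CPM in the MYC library, and erythroblasts 126 and 117, with intervals that included 1. Monocytes were higher in the MYC library, 33.8 against 47.6 CPM (0.49, interval 0.35 to 0.64). Mature neutrophils were lower, 8.69 against 6.87 CPM (-0.34, interval -0.68 to -0.001). T or NK cells were the one class past 1.5-fold, on 61 and 29 UMIs (0.73, interval 0.04 to 1.39); with the 20 most abundant genes left out 0 classes passed and with median-of-ratios scaling 3. Of the peroxiredoxins Prdx3 had the smallest median log2 ratio over the classes, 0.21, against 0.40 to 0.72 for the others.

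Prdx6 (ENSMUSG00000026701, chromosome 1, 161240112 to 161251219, minus strand), a peroxiredoxin with 1 catalytic cysteine that relies on glutathione and also has phospholipase activity, had mostly small ratios. The control library had 309 CPM in erythroid progenitors, 228 in basophils or mast cells, 221 in immature neutrophils, 216 in granulocyte progenitors, 176 in stem or multipotent progenitors, 159 in mature neutrophils, 138 in monocytes, 71.0 in MHC II-high dendritic-like cells, 68.7 in T or NK cells, 57.3 in erythroblasts and 40.2 in mature B cells. Basophils or mast cells, immature neutrophils and granulocyte progenitors had overlapping intervals. Monocytes had 138 CPM in the control library and 192 CPM in the MYC library (0.48, interval 0.41 to 0.55). Erythroid progenitors had 309 and 407 CPM (0.40, interval 0.30 to 0.49). Mature B cells alone passed 1.5-fold, 40.2 against 68.1 CPM on 127 and 46 UMIs (0.76, interval 0.24 to 1.26). With doublets kept 0 classes passed, with median-of-ratios scaling or the coarser clustering 3, and averaged cell by cell 4. Mature neutrophils, with 159 and 161 CPM, had an interval that included 1 (0.02, interval -0.05 to 0.09). Its near copy Prdx6b had 0 UMIs in every named class.

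Gpx1 (ENSMUSG00000063856, chromosome 9, 108338903 to 108340343, plus strand), the cytosolic selenoenzyme that reduces hydrogen peroxide with glutathione, was lower in the MYC library in 10 of the 11 classes (34.9% of the 5071 genes were lower in at least 10) and equal within counting error in MHC II-high dendritic-like cells (1095 and 1098 CPM). With median-of-ratios scaling granulocyte progenitors, immature and mature neutrophils turned to log2 ratios at or just above 0, so the direction holds there only relative to all UMIs, and T or NK cells, whose interval included 1, turned above 1 among cells under 5% mitochondrial UMIs. The order in the control library was 3261 CPM in erythroblasts, 1728 in monocytes, 1639 in granulocyte progenitors, 1285 in erythroid progenitors, 1095 in MHC II-high dendritic-like cells, 1019 in immature neutrophils, 827 in mature neutrophils, 797 in stem or multipotent progenitors, 779.6 in basophils or mast cells, 302 in mature B cells and 251 in T or NK cells. From mature neutrophils down to basophils or mast cells neighbours in this order had overlapping intervals. Erythroblasts had 3261 CPM in the control library and 2141 CPM in the MYC library (-0.61, interval -0.64 to -0.57). Erythroid progenitors had 1285 and 869 CPM (-0.56, interval -0.62 to -0.51). The erythroid classes had the largest differences, and cluster 3 alone went from 5286 to 2980.2 CPM. Monocytes had 1728 and 1411 CPM (-0.29, interval -0.31 to -0.27), and mature neutrophils 827 and 749 (-0.14). Haemoglobin, a measure of free erythroid RNA, took 0.100% and 0.0469% of monocyte UMIs and 0.241% and 0.137% of mature neutrophil UMIs, and its part was not tested. Erythroblasts alone passed 1.5-fold; no class did with median-of-ratios scaling, under 5% mitochondrial UMIs or at the finer clustering, and 2 did with doublets kept, from markers alone or with the 20 most abundant genes left out. In 4 classes the ratio lay above the median of all genes. Erythroblast UMIs also held more haemoglobin in the MYC library, 14.0% and 17.6%, and its part was not tested.

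Gpx4 (ENSMUSG00000075706, chromosome 10, 80047166 to 80056439, plus strand), the selenoenzyme that reduces lipid hydroperoxides in membranes, was higher in the MYC library in all 11 classes and past 1.5-fold in none, though in 1 with median-of-ratios scaling, from markers alone and at the coarser clustering. Of the 18 clusters it was lower in 3, of which unnamed cluster 6 of low depth had an interval below 1. In the control library it stood at 455 CPM in erythroid progenitors, 399 in erythroblasts, 336 in granulocyte progenitors, 312 in basophils or mast cells, 302 in monocytes, 302 in stem or multipotent progenitors, 247 in immature neutrophils, 244 in mature neutrophils, 184 in MHC II-high dendritic-like cells, 162 in T or NK cells and 113 in mature B cells. From granulocyte progenitors down to stem or multipotent progenitors neighbours in this order had overlapping intervals, and so had the neutrophil classes. Erythroblasts had 399 CPM in the control library and 565 CPM in the MYC library (0.50, interval 0.43 to 0.57). Granulocyte progenitors had 336 and 448 CPM (0.42, interval 0.36 to 0.48). Mature neutrophils had the smallest ratio of these classes, 244 against 265 CPM (0.12, interval 0.06 to 0.18), and in mature B cells the interval included 1 (0.19, interval -0.16 to 0.54). Both glutathione peroxidases are selenoproteins that need the same machinery for selenocysteine, and their ratios lay on opposite sides of 1 in 10 of the 11 classes (with median-of-ratios scaling in all of these but the 3 granulocyte classes).

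Summed over all cells of a library some of these genes read differently, and the classes differed in number and in share of UMIs. Erythroblasts were 8.06% of control and 3.82% of MYC library cells, with medians of 10023 and 5502 UMIs per cell. They held 11.7% and 3.95% of all UMIs. The class mix below is each class's share of the UMIs, so cell number and UMIs per cell both enter it. Prdx2 stood at 387 CPM in the whole control library and 271 CPM in the MYC library (log2 ratio -0.51). With the control library's class levels held fixed and only the class mix of the MYC library applied, the log2 ratio was -0.94, and the remainder within classes was 0.42. The share of Prdx2 UMIs from the erythroid classes was 80.6% (control) and 54.9% (MYC). Prdx3 behaved likewise, with -0.30 in all, -0.49 for the mix and 0.19 within classes. For both genes the whole-library ratio and the within-class ratio had opposite signs. Sod1 went from 198 to 130.4 CPM (-0.60), nearly all of it within classes (-0.54). Prdx5 went from 705 to 1279.9 CPM (0.86), with 0.28 for the mix and 0.58 within classes. Sod2 and Prdx4 had within-class values of 0.60 and 0.65 and almost no part from the mix.

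**Figure D4:**
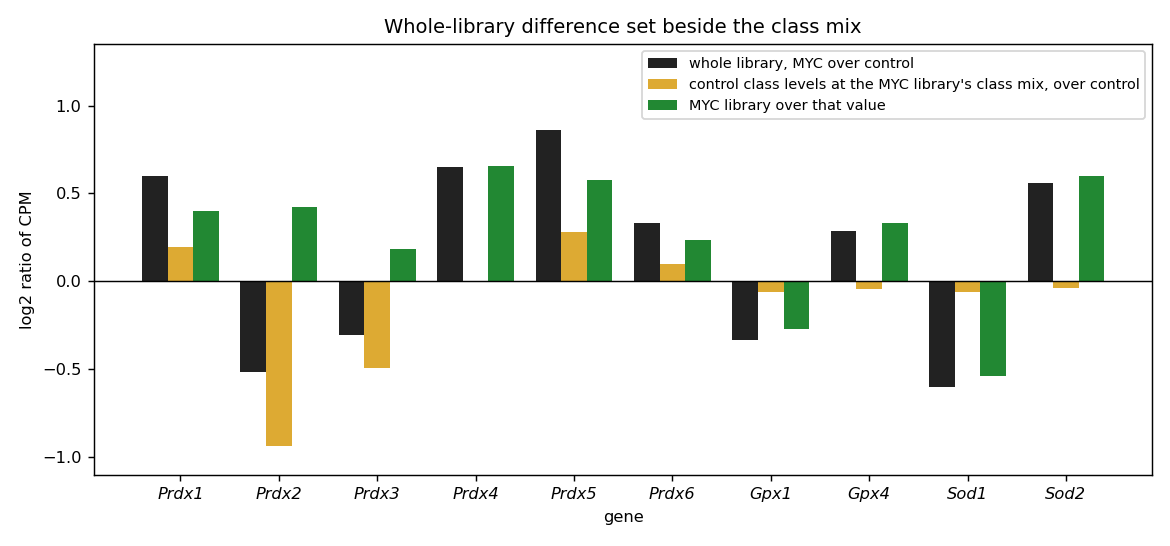
Log2 ratios of CPM for the 10 genes: whole library (black), control class levels at the class mix of the MYC library over the control library (yellow), and the MYC library over that value (green). The class mix is each class's share of the UMIs. Prdx2 and Prdx3 have black bars below 0 (-0.51 and -0.30) and green bars above 0 (0.42 and 0.19), and for Sod1 the black and green bars nearly match (-0.60 and -0.54).

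For each gene the 3 others with the most similar pattern were sought among 5572 genes by Pearson correlation of log2(CPM + 1) over 22 points, the 11 classes in both libraries; the points share libraries and depth, so the values describe and no p is given. Prdx2 was closest to Glrx5 (0.98), Txnrd2 (0.97) and Josd2 (0.97). Glrx5 is a mitochondrial glutaredoxin needed for iron-sulfur clusters and haem synthesis, and Txnrd2 the mitochondrial thioredoxin reductase. Prdx3 was closest to Bola3 (0.98), Ifrd2 (0.97) and Glo1 (0.96), Prdx5 to Cebpd (0.97), Hp (0.97) and Ltb4r1 (0.95), and Sod2 to Psma5 (0.97), Cct4 (0.97) and Snu13 (0.97). Cebpd and Hp are typical granulocyte genes, and Psma5 and Cct4 are subunits of the proteasome and of a chaperonin. Prdx1 was closest to Rtraf (0.93), Uqcc2 (0.92) and Mrpl4 (0.92), Prdx4 to Cisd1 (0.92), Rgs10 (0.88) and Pdlim1 (0.84), and Sod1 to Csnk1a1 (0.91), Ank (0.91) and Tsc22d1 (0.91). Prdx6 had looser neighbours, Smim4 (0.87), Vdac2 (0.86) and Nfu1 (0.85), as had Gpx1, Tpcn1 (0.87), Stom (0.87) and Vps35 (0.86). Gpx4 was closest to Ndufb9 (0.94), Oaz1 (0.92) and Zcrb1 (0.91). Among the 10 genes themselves Prdx2 and Prdx3 were the most alike (0.95), and Prdx3 and Prdx5 the most opposed (-0.73).

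The enzymes depend on partner systems, for which 64 genes were followed in 4 lists; of each list the 3 genes past 1.5-fold in one direction in the most classes are named. Of 156 gene and class combinations of the thioredoxin and glutaredoxin system, which recycles peroxiredoxins, 13 were at least 1.5-fold higher, near the 8.94% of all combinations. Another 19 were as much lower, a smaller share than the 19.3% of all. Median-of-ratios scaling, which raises all genes of a class alike, gave 32 and 12. Shares of all genes at that scaling are not given, here or for the lists below. List medians of the thioredoxin and glutaredoxin system lay between -0.15 (mature neutrophils) and 0.26 (T or NK cells). Sesn1, a sestrin of the stress response, was lower in 7 of 11 classes, with 41.2 and 19.4 CPM in erythroblasts of the control and MYC libraries (-1.09, interval -1.45 to -0.74). Among those 7, its interval included 1 in mature B cells, T or NK cells and basophils or mast cells, on 14, 16 and 17 UMIs of the MYC library. Sesn3, another sestrin, was lower in 4 of 7 and Txnip, an inhibitor of thioredoxin, in 4 of 11; 18.7% of genes with 50 UMIs in all 11 classes were lower in at least 4. Glutathione synthesis and use had 17 combinations higher, a larger share than the 8.94% of all, and 22 lower of 138, a smaller share than 19.3% (30 and 11 with median-of-ratios scaling), with list medians from -0.43 (T or NK cells) to 0.36 (erythroblasts). Gclc, the catalytic subunit of the rate-limiting step of glutathione synthesis, was lower in 5 of 11 classes, with 261 and 125 CPM in erythroblasts (-1.06, interval -1.19 to -0.92). Among those 5, its interval included 1 in MHC II-high dendritic-like cells (-1.41 to 0.05). Gstm1, a glutathione transferase, was lower in 7 of 10, with 200.01 and 129 CPM in monocytes (-0.63, interval -0.70 to -0.57), whereas Mgst3, a microsomal one, was higher in 5 of 8, with 21.7 and 49.7 CPM in monocytes. For comparison, of genes with 50 UMIs in all 11 classes 5.82% were lower in at least 7, 13.1% lower in at least 5 and 6.82% higher in at least 5. Gstm1 and Mgst3 had 50 UMIs in fewer classes and lie outside that set.

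Catalase, other scavengers and the NRF2 axis had 22 combinations higher and 10 lower of 96, against 8.94% and 19.3% of all combinations (24 and 5 with median-of-ratios scaling), with list medians from -0.44 (mature B cells) to 0.10 (stem or multipotent progenitors). Park7 gave 11 of the 22. Park7 (DJ-1), a redox-sensing protein, was higher in all 11 classes by 0.70 to 1.10 on the log2 scale, which 0.947% of genes matched at 1.5-fold in all 11. It had 299 and 540.5 CPM in erythroid progenitors (0.85, interval 0.77 to 0.94) and 180.4 and 346 CPM in monocytes (0.94, interval 0.88 to 0.998). Ccs, the copper chaperone that loads Sod1, was higher in 5 of 10 classes and lower in none of them by 1.5-fold. Among those 5, its interval just included 1 in MHC II-high dendritic-like cells (-0.006 to 1.46). In erythroid progenitors, where Sod1 had its lowest ratio among the compared classes, Ccs had 25.2 and 53.3 CPM (1.08, interval 0.79 to 1.37). Blvrb, a biliverdin reductase, was higher in 4 classes and lower in 1, and 9.39% of genes were higher in at least 4. The selenocysteine machinery and other selenoproteins had 22 combinations higher and 15 lower of 148, against 8.94% and 19.3% (39 and 7 with median-of-ratios scaling), with list medians from -0.24 (mature B cells) to 0.28 (erythroblasts). Selenof, a selenoprotein of the endoplasmic reticulum, was higher in 5 of 11 classes, while Selenot was lower in 6 of 11 and Selenop in 5 of 10. Among the classes with lower Selenop, the interval included 1 in T or NK cells (-1.40 to 0.11). Of genes with 50 UMIs in all 11 classes 6.82% were higher in at least 5, 13.1% lower in at least 5 and 9.29% lower in at least 6. In monocytes Selenof had 151 and 219 CPM and in granulocyte progenitors Selenot had 81.9 and 47.9 CPM. Selenoproteins thus differed in both directions.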

How the data were processed

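Bone marrow cells of 2 libraries, 1 per genotype, were made with a Chromium 3' v2 kit, per the labels. The deposited files hold UMI counts per gene and cell barcode; per the file headers, Cell Ranger 6.0.0 wrote them. The submitters' processing notes name Cell Ranger 6.0, Seurat and GRCm38 (mm10); the gene annotation and barcode calling are not given in the sources used here. Barcodes numbered 17073 (control) and 14496 (MYC), with 131884603 and 110012176 UMIs.

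Cells with at least 500 UMIs, at least 200 genes and under 10% mitochondrial UMIs were kept (15461 and 12896). Scrublet's automatic threshold called 558 doublets (control) and 0 (MYC), so 1 score threshold of 0.2 was used for both, which removed 558 (3.61%) and 356 (2.76%), under the 13.7% and 11.6% the cell numbers would lead one to look for. Barcodes shared by the libraries numbered 97. Cells were clustered with scanpy 1.11.5 (2000 variable genes, 30 components, 15 neighbours, Leiden resolution 1) and named from marker lists. UMIs were summed per class and library. Ratios have exact conditional binomial intervals and levels exact Poisson intervals, at 95%, for counting error only. A gene was called at 1.5-fold with at least 50 UMIs over both libraries. The share of all genes so called is given beside the main counts of genes per class and of combinations. Counts under the alternative settings have no such share beside them. Ratio code was tested on simulated data.

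All 10 antioxidant genes are named whatever their value, with the 3 most alike genes of each and the top 3 of each partner list. The members and lists were chosen with earlier results of these data known. Alternatives were other cell filters, clusterings, scalings, folds and UMI minimums. Positions are from GENCODE vM21 (32158 features matched, 99.6%).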

Additional observations from a re-analysis of the deposited data

Results flagged for a closer look

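Prdx2 and Prdx3 had ratios on opposite sides of 1 in different classes, with counting intervals that did not include 1. The log2 ratio of Prdx2 was 0.64 in monocytes and -0.22 in mature neutrophils. That of Prdx3 was 0.73 in T or NK cells and -0.34 in mature neutrophils. With 1 library per group the difference between classes was not tested. With median-of-ratios scaling Prdx2 in mature neutrophils lay at 0.01.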

How the results depend on the processing

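The ratio of 1 gene and class turned its call: Sod1 in erythroblasts had a log2 ratio of 0.77 at Leiden resolution 0.5, where that class held late cells only. Of the other alternatives for single genes and classes 777 moved by less than the counting interval and 222 by more. Counts of genes past the fold in a class, given below where they left the main count by over 1.5 times, are small, and the causes were not tested beyond the settings' own construction. These counts have no share of all genes at the same setting beside them. With doublets kept the count of genes was 2 higher in mature B cells and basophils or mast cells, 0 lower in T or NK cells, 2 lower in erythroid progenitors. Among cells under 5% mitochondrial UMIs the count of genes was 3 higher in granulocyte progenitors and basophils or mast cells, 0 lower in granulocyte progenitors and T or NK cells, 1 lower in erythroblasts. With at least 1000 UMIs and 500 genes per cell the count of genes was 1 higher in MHC II-high dendritic-like cells, 2 higher in granulocyte progenitors and basophils or mast cells, 0 lower in T or NK cells, 2 lower in erythroid progenitors. At Leiden resolution 0.5 the count of genes was 4 higher in erythroid progenitors, 1 lower in mature neutrophils and erythroblasts, 2 lower in erythroid progenitors. At Leiden resolution 2 the count of genes was 1 higher in stem or multipotent progenitors, 3 higher in granulocyte progenitors, 0 lower in granulocyte progenitors, 1 lower in erythroblasts. With each library clustered on its own the count of genes was 2 higher in basophils or mast cells. With classes from markers alone the count of genes was 2 higher in granulocyte progenitors, 0 lower in stem or multipotent progenitors and granulocyte progenitors, 1 lower in mature neutrophils and erythroblasts, 2 lower in erythroid progenitors. With median-of-ratios scaling the count of genes was 4 higher in immature neutrophils, 5 higher in monocytes and basophils or mast cells, 7 higher in granulocyte progenitors, 0 lower in granulocyte progenitors, mature B cells and T or NK cells, 1 lower in erythroblasts. The partner lists then had 32 higher (thioredoxin), 12 lower (thioredoxin), 30 higher (glutathione), 11 lower (glutathione), 5 lower (catalase), 39 higher (selenocysteine), 7 lower (selenocysteine). As means over cells the count of genes was 2 higher in granulocyte progenitors and basophils or mast cells, 0 lower in mature B cells and T or NK cells, 1 lower in erythroblasts. With the 20 most abundant genes left out of the denominator the count of genes was 1 higher in monocytes, MHC II-high dendritic-like cells, T or NK cells and erythroid progenitors, 2 higher in mature B cells, 2 lower in erythroid progenitors. At a fold of 2 the count of genes was 0 higher in stem or multipotent progenitors, granulocyte progenitors, monocytes, mature B cells, erythroid progenitors and basophils or mast cells, 1 higher in mature neutrophils, MHC II-high dendritic-like cells, T or NK cells and erythroblasts, 0 lower in stem or multipotent progenitors, granulocyte progenitors, mature B cells, T or NK cells, erythroblasts and basophils or mast cells. With at least 200 UMIs per gene the count of genes was 0 higher in granulocyte progenitors and basophils or mast cells, 1 higher in immature neutrophils, mature B cells and T or NK cells. The partner lists then had 8 higher (thioredoxin), 9 lower (thioredoxin), 4 higher (glutathione), 13 lower (glutathione), 6 lower (catalase). Classes that fell under 100 cells in a library in a setting have no value there. No paired analysis was possible because each group is 1 library. No alternative could leave out a replicate. Few UMIs limit Prdx4, which had 7 in basophils or mast cells, 32 in T or NK cells and 33 each in granulocyte progenitors and immature neutrophils of the control library. Few cells limit the MYC library's erythroid progenitors (110), mature B cells (140), basophils or mast cells (144) and T or NK cells (149).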

Other observations

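Classes with under 100 cells in a library are given as values only. Plasma cells (249 control and 89 MYC library cells) had Sod2 at 24.4 and 75.3 CPM and Sod1 at 73.9 and 40.7 CPM. Plasmacytoid dendritic cells (243 and 56 cells) had Prdx4 at 25.2 and 92.5 CPM and Sod1 at 172 and 87.3 CPM. Sod1 was thus lower, and Prdx4 higher, in the MYC library in plasma and plasmacytoid dendritic cells as well. Other classes under 100 cells were less clear. Prdx4 intervals included 1 in macrophages (-0.43 to 3.42), B progenitors (-1.20 to 1.69) and stromal or endothelial cells (-1.28 to 2.07). In megakaryocytes Prdx4 rested on 4 and 13 UMIs. Relative to all UMIs, Sod1 was higher in the MYC library in stromal or endothelial cells (87 and 101 cells). Macrophages numbered 20 and 635 cells, with Gpx4 at 86.1 and 292 CPM and Sod1 at 448 and 321 CPM. The control Gpx4 level there rested on a mean of 0.5 UMIs per cell, and a single cell gave 50% of these UMIs. Prdx1 in macrophages had an interval that included 1 (-0.13, interval -0.62 to 0.41).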
